A study of Mus musculus with 56 samples.

Results

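Kdm6a, Kdm6b, Ezh1, and Ezh2 are the genes of the enzymes that add and remove methyl groups at lysine 27 of histone H3. All ChIP-seq peaks carrying one of these 4 gene names in the deposited peak lists were collected, in all 56 samples and for all 9 antibodies. This gave 594 of 1610519 peaks and 4 of 20352 gene names. Kdm6b held 281 of the 594 peaks, Ezh2 117, Kdm6a 107, and Ezh1 89. The peaks were grouped into 35 sites, a site being all peaks of any antibody that overlap.

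The cells were bone marrow-derived macrophages (BMDMs) of wild-type C57BL/6 mice aged 8 to 12 weeks, grown for 6 days in medium conditioned by L929 cells, a source of the growth factor MCSF. In the 1 hr experiment, cells were left untreated or given IL-4 (20 ng/ml) for 1 hr, and the antibodies were against H3K27Ac, the deacetylases HDAC1, HDAC2, and HDAC3, PU.1, p300, and RNA polymerase II phosphorylated at serine 5 (RNAPII-pS5) or serine 2 (RNAPII-pS2). In the LPS experiment, RNAPII-pS5, RNAPII-pS2, and p65 were measured in cells without either agent (ctrl/ctrl), after 24 hr of IL-4 pretreatment (IL-4 PT/ctrl), after 1 hr of LPS (100 ng/ml by the labels, ctrl/LPS), and after both (IL-4 PT/LPS). There were 2 samples in each of 28 groups. The study describes its ChIP-seq samples as independent biological replicates, and the labels do not name the culture or animal behind each.

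H3K27 trimethylation is a mark of silent chromatin. EZH1 and EZH2 are the alternative catalytic subunits of Polycomb repressive complex 2 (PRC2), which writes it, and EZH2 is the form that prevails in dividing cells. KDM6A (UTX) and KDM6B (JMJD3) are the demethylases that remove the mark. KDM6A is also a subunit of the MLL3/4 complexes at enhancers, and Kdm6b is known in macrophages as a gene induced by both inflammatory signals and IL-4. The same lysine carries acetyl groups at active enhancers and promoters (H3K27Ac), which are written by p300 and removed by histone deacetylases. STAT6 is the transcription factor through which IL-4 acts, p65 is the NF-κB subunit that enters the nucleus after LPS, and PU.1 is the lineage-determining factor of macrophages.

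In the peak lists, 6 of 8 macrophage marker genes had an RNAPII-pS5 peak in each of 12 samples, among them Csf1r, Cd68, and Itgam, and no peak was named for Spi1 or Adgre1. Of the other lists, 2 of 5 T cell, 1 of 5 B cell, 0 of 6 neutrophil, 0 of 4 erythroid, 2 of 3 dendritic cell, and 1 of 4 fibroblast genes had one in each of the 12 samples. The genes with one in each were Cd3d, Lck, Ms4a1, Flt3, Xcr1, and Pdgfrb. Cd3e, Pax5, Ly6g, Gata1, Zbtb46, and Col1a1 were among those with none in any sample. The presence of a peak therefore did not by itself mark the cell type. Genes were searched by these symbols only. A gene listed under another name would be missed, so a lack of named peaks does not show a lack of RNAPII. Peaks per sample ran from 8440 in an HDAC3 sample to 71027 in a PU.1 sample, and reads were not analysed, so depth is unknown. Untreated p300 replicate 1 stood apart, with 44787 peaks against 66710 to 69360 in the other 3 p300 samples. For RNAPII-pS2 in the 1 hr experiment, every peak name in the samples labelled untreated said IL-4 and every peak name in the samples labelled IL-4 said vehicle. These samples are given here as the libraries labelled untreated and IL-4.

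For every antibody but H3K27Ac, the value of a peak is its MACS2 score, a −log10 p- or q-value. The H3K27Ac value is a normalized tag signal in regions of 1 fixed width of about 1 kb. The value of a gene is the sum over its peaks, and the value of a region is its highest peak. Changes are differences on the log2 scale after subtracting, in each sample, the median over genes or regions that had a peak in all samples. A change is called at an adjusted p of at most 0.05 (limma, Benjamini-Hochberg over all genes or all regions). A region with no peak in a group took the lowest score in the lists of that antibody. A call there rests on that floor and has too small a spread, so a fitted change there depends on the floor and is no fold. A floor 4 times higher was tried as an alternative. It also replaced every measured score below it, so that weak peaks then counted as missing peaks. A call can be lost with it for this reason alone. Region counts cover the regions with a peak in both samples of at least 1 of the compared groups.

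The sequences shown are those at which the results turn, taken from GRCm38, the assembly also named mm10. The centre 200 bases are given of a site with p65 and PU.1 upstream of Kdm6b, of a p65 region in its intron 1, of the far upstream site with p65 after LPS, of the site with RNAPII only after IL-4 pretreatment, and of p65 regions within Kdm6a and Ezh2. The 250 bases before the start of Ezh2 in the promoter table lie in the region from which RNAPII peaks were missing after LPS. The gene span of Ezh2 used for distances of 500 bp starts further upstream, at chr6:47595341. These 250 bases therefore lie inside that span. The promoter table (RefSeq, GRCm38) held 3 of the 4 genes, and Kdm6b was not among them. Capitals mark matches, on either strand, to TTC, 4 bases of any kind, and GAA (STAT6) or to the PU.1 core GAGGAA.
Kdm6b −15.8 kb, exon 77 and intron 76 of Dnah2, chr11:69429407-69429606, plus strand: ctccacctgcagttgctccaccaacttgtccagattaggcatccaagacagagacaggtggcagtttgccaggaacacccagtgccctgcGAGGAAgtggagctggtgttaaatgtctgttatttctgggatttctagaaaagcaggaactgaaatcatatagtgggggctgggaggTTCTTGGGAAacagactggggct
Kdm6b +2.9 kb, intron 1 of Kdm6b, chr11:69410664-69410863, plus strand: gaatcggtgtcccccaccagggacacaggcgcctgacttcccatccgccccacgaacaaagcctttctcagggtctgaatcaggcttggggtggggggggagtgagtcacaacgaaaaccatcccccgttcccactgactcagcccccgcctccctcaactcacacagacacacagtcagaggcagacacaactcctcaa
Kdm6b −52.2 kb, intron 39 of Dnah2, chr11:69465737-69465936, plus strand: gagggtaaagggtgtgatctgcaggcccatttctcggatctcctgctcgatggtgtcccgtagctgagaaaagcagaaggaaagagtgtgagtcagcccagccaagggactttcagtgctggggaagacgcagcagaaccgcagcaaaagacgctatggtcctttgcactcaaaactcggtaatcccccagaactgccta
Kdm6b −25.1 kb, intron 63 of Dnah2, chr11:69438716-69438915, plus strand: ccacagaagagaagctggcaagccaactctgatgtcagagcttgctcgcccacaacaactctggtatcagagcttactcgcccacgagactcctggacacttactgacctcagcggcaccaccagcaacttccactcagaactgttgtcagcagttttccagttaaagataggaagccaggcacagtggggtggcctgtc
Kdm6a +24.6 kb, intron 2 of Kdm6a, chrX:18187224-18187423, plus strand: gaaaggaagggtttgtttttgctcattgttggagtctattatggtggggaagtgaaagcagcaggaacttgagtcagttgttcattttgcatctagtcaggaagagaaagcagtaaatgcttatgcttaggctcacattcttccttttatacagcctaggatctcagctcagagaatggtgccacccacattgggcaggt
Ezh2 +34.0 kb, intron 3 of Ezh2, chr6:47560940-47561139, plus strand: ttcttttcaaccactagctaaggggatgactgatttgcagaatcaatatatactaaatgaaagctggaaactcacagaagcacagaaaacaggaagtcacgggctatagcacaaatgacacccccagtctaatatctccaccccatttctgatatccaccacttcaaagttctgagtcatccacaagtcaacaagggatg
Ezh2 promoter, chr6:47595031-47595280, minus strand: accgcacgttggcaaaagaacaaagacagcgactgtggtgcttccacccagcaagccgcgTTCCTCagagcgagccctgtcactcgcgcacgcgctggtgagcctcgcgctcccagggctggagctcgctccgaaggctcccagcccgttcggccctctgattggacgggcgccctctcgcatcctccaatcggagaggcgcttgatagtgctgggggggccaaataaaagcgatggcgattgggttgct

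The −52.2 kb window was taken by the rule for named regions, and the other windows were chosen after their values were seen. Only the Kdm6b −15.8 kb window held a STAT6 match, 1 match, together with 1 match to the PU.1 core. The Ezh2 promoter held 1 PU.1 core match on the opposite strand. The STAT6 motif was in 5.85% of 32851 promoters and in 8.4% of 37556 p65 regions of the same length, and the PU.1 core was in 23.3% and 35.2%. None of the 7 sequences held the other STAT motif (TTC, 3 bases of any kind, GAA), which was in 7.02% of promoters and 8.66% of p65 regions. None held the NF-κB motif searched (GGGA, 2 bases of any kind, TCC), which was in 3.59% and 7.45%. A match is a description of letters and not a binding site, and an absent match says nothing about the factor.

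The peaks of the 4 genes lay in different places. Kdm6b (chr11:69398508-69413675, minus strand, 15168 bp) had 70.8% of its peaks in introns, of itself or of its upstream neighbour Dnah2, 22.4% in intergenic DNA, and 6.76% in exons. No sample of any antibody had a peak within 500 bp of the annotated start of Kdm6b. Its 9 sites included 4 with peaks of 5 or more antibodies. These were intron 1 (+3.4 kb, chr11:69408844-69411947), the intergenic site at −4.7 kb (chr11:69417454-69419373), and the sites at −10.4 kb (chr11:69423640-69424651) and −15.8 kb (chr11:69428900-69430050) within Dnah2. Intron 1 had a peak in 56 of 56 samples, the −15.8 kb site in 54, and the −4.7 kb site in 52. Peak names go to the nearest start, and 34 peaks in or near Kdm6b carried the name Tmem88 and 7 the name Lsmd1, so that they were not counted.

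Ezh2 (chr6:47530139-47595341, minus strand) had 23.9% of its peaks at the promoter. H3K27Ac regions lay within 500 bp of the start of Ezh2, Ezh1, and Kdm6a in 4 of 4 samples each, while PU.1, HDAC3, and p65 had no peak that near the start of any of the 4 genes. RNAPII-pS5 had a peak within 500 bp of the start in 8 of 12 samples at Ezh2, 9 at Kdm6a, and 6 at Ezh1. At Kdm6a (chrX:18162575-18279936, plus strand), the site at +24.6 kb in intron 2 (chrX:18186672-18187914) had peaks of all 9 antibodies, in 37 samples. At Ezh1 (chr11:101191115-101226463, minus strand), the intergenic site at −5.5 kb (chr11:101231182-101232760) had peaks of 7 antibodies in 32 samples. The Ezh2 peaks at +67.1 kb lay 480 bp from Cul1 and 1400 bp past the end of Ezh2, and the peaks within Ezh1 also included 9 named Cntnap1. Of the 35 sites, 4 had peaks of all 9 antibodies and 13 had peaks of 1 antibody.

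**Figure D1:**
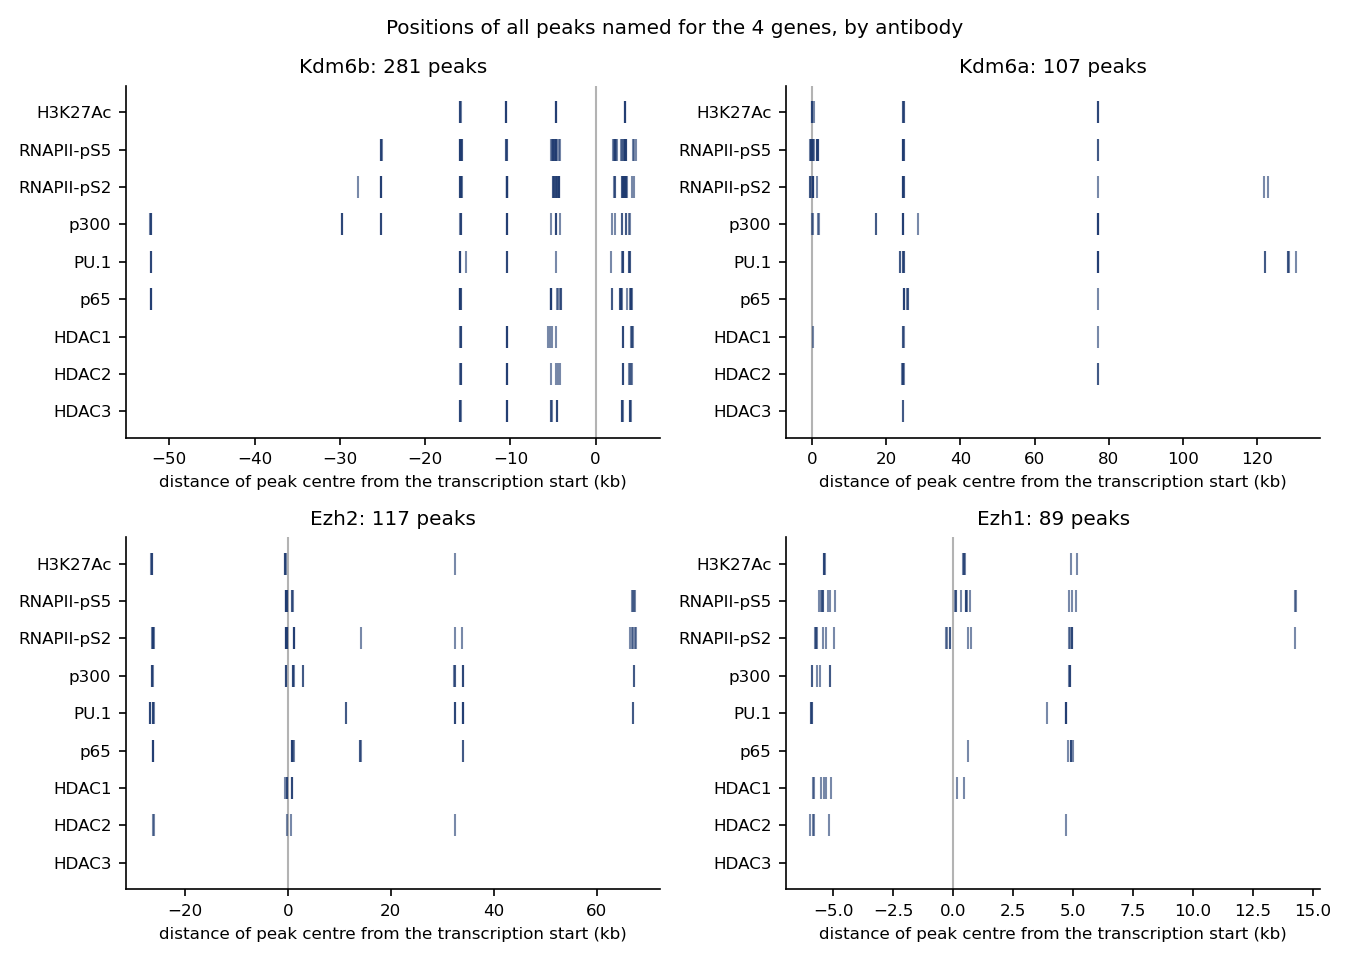
Distance of the centre of every peak named for Kdm6b, Kdm6a, Ezh2, and Ezh1 from the annotated transcription start (x axis, kb), with 1 row per antibody and 1 tick per peak. Kdm6b peaks lie at 4 recurrent sites from intron 1 to −15.8 kb with no peak at the start itself, and HDAC3 has no peak at Ezh2 or Ezh1.

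Levels were compared between genes only for H3K27Ac, whose regions have 1 width. The highest region of Kdm6b, in intron 1, had a signal of 301.2 to 519.7 over the 4 samples. The highest region of Ezh1, at −5.4 kb, had 151.3 to 175.0, that of Kdm6a at its start 134.0 to 148.6, and that of Ezh2 at its start 102.2 to 121.8. These ranges did not overlap, so the order Kdm6b, Ezh1, Kdm6a, Ezh2 held in every sample. Kdm6a lies on the X chromosome and the others do not, and gene copies were not taken into account in this order. HDAC3 peaks were found at Kdm6b in 4 of 4 samples and at Kdm6a in 2 of 4, whereas Ezh1 and Ezh2 had none.

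The first question was what 1 hr of IL-4 changed at these genes. H3K27Ac rose at Kdm6b, and the other 3 genes were not called. Its summed signal was 562.3 and 534.2 in untreated and 876.1 and 869.6 in IL-4-treated BMDMs. The groups did not overlap, and Kdm6b rose by 0.68 on the log2 scale (SE 0.0534, adjusted p = 0.00705). It was the only member called of 4, where 32.8% of 13035 genes were called. The sums of Kdm6a were 220.4 and 220.9 untreated and 201.0 and 204.5 with IL-4, those of Ezh2 135.1, 135.9, 124.8, and 140.9, and those of Ezh1 293.8, 255.9, 215.2, and 263.9, none of them called.

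Within Kdm6b, 3 of its 4 H3K27Ac regions rose, and the −15.9 kb region did so most. Its signal was 34.4 and 28.7 in untreated and 101.3 and 96.5 in IL-4-treated cells, a rise of 1.71 on the log2 scale (SE 0.114, adjusted p = 0.00318). It covers the window printed above with 1 STAT6 and 1 PU.1 core match. Intron 1 went from 309.4 and 301.2 to 510.9 and 519.7, a rise of 0.81 on the log2 scale (SE 0.0581, adjusted p = 0.00372). The −10.5 kb region went from 62.3 and 50.6 to 89.7 and 78.1 (log2 change 0.63, SE 0.145, adjusted p = 0.0415). The −4.7 kb region, with 156.2, 153.7, 174.2, and 175.3, was not called (log2 change 0.23, adjusted p = 0.0501).

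Kdm6a had 1 region that fell. At +24.5 kb, H3K27Ac was 70.3 and 74.4 untreated and 53.6 and 55.9 with IL-4, a log2 change of −0.35 (SE 0.0687, adjusted p = 0.0293). The promoter region of Kdm6a, at 137.2, 134.0, 135.8, and 148.6, was not called, nor was any region of Ezh1 or Ezh2. In all, 4 of 11 regions of the 4 genes were called, 3 of them higher, where 41.3% of 28232 regions were called and 19% were higher. The calls at −10.5 kb and at Kdm6a +24.5 kb were lost when any 1 of the 4 samples was left out, which leaves 2 called regions in each case, and the first was also lost with a floor 4 times higher (adjusted p = 0.0584). Those at −15.9 kb and in intron 1 were not.

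**Figure D2:**
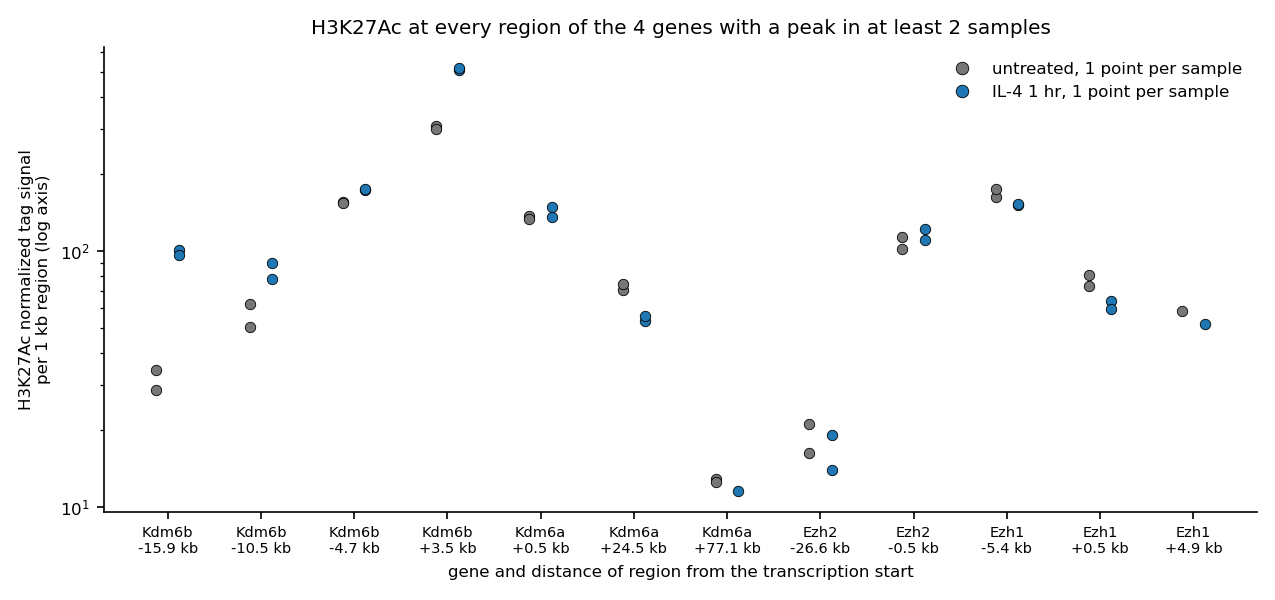
H3K27Ac normalized tag signal (y axis, log scale, per region of about 1 kb) in each region of the 4 genes with a region in at least 2 samples (x axis), 1 point per sample, grey for untreated and blue for IL-4 for 1 hr. The 2 colours separate at Kdm6b −15.9 kb, where untreated samples lie at 28.7 and 34.4 and IL-4 samples at 96.5 and 101.3, and at Kdm6b +3.5 kb.

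The −15.8 kb site of Kdm6b was also followed with the other antibodies of the 1 hr experiment. RNAPII-pS5 had scores of 15.65 and 11.8 untreated and 33.25 and 31.98 with IL-4. These groups did not overlap, and the change was not called (log2 change 1.38, SE 0.228, adjusted p = 0.0561). The p300 scores were 64.75 and 155.4 untreated and 309.53 and 295.13 with IL-4 (log2 change 0.92, SE 0.309, adjusted p = 0.178). Without untreated p300 replicate 1, the sample that stood apart, the log2 change was 1.11 (adjusted p = 0.119). PU.1 scored 77.3 and 39.63 untreated and 119.17 and 100.16 with IL-4 (log2 change 0.65, adjusted p = 0.75). The IL-4 samples were the higher pair for all of these antibodies, and the change was called for H3K27Ac only. The differences between antibodies were not tested.

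Deacetylases were on the same site. HDAC3 scored 44.78 and 30.81 untreated and 49.94 and 48.83 with IL-4, HDAC2 12.34, 12.26, 16.13, and 16.94, and HDAC1 21.27, 8.53, 9.79, and 13.97. None of the 3 was called. The HDAC3 antibody carries the same catalogue code as the H3K27Ac antibody in the labels and in the list of antibodies in the study's methods, whereas the study's table of reagents gives a separate HDAC3 antibody. RNAPII-pS2 scored 4.17 and 16.4 in the libraries labelled untreated, 9.39 in 1 library labelled IL-4, and had no peak in the other.

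**Figure D3:**
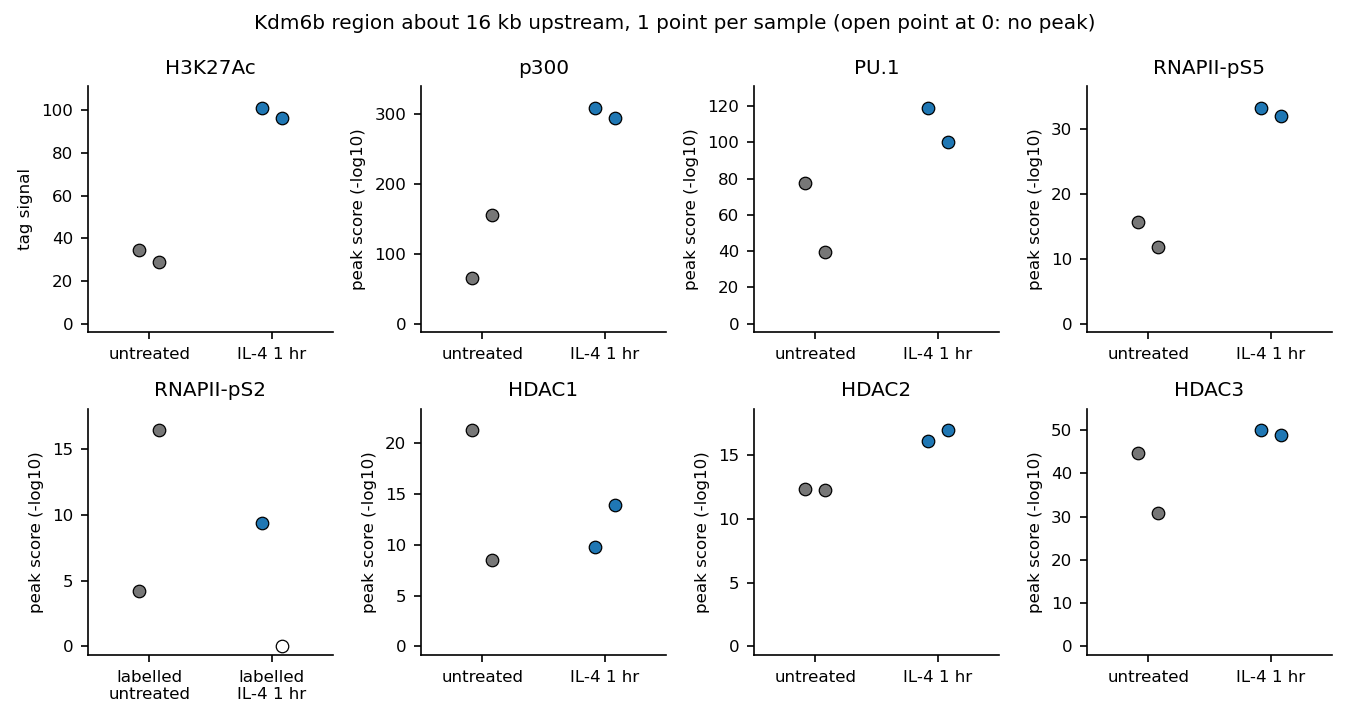
Value of the Kdm6b site 15.8 kb upstream (y axes, tag signal for H3K27Ac and −log10 peak score for the rest, each from 0) in untreated and IL-4-treated samples, 1 panel per antibody and 1 point per sample, an open point for no peak. IL-4 samples lie above untreated samples for H3K27Ac, p300, PU.1, RNAPII-pS5, HDAC2, and HDAC3, and the groups overlap for HDAC1 and for RNAPII-pS2, which is shown by its labels.

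RNAPII-pS5 at whole genes separated none of the 4 genes by the test. The sums were 153.64 and 96.74 untreated and 148.42 and 113.68 with IL-4 at Kdm6b, 61.32, 42.05, 48.37, and 41.88 at Kdm6a, and 61.86, 29.55, 56.24, and 44.39 at Ezh2. Ezh1 had 65.62 and 64.09 untreated and 69.22 and 153.21 with IL-4. The last of these came from its promoter peak, which scored 112.85 in IL-4 replicate 2 against 21.5 to 27.68 in the other 3 samples. None of the 4 members was called, and none passed an unadjusted p of 0.05, against 1.39% and 14.6% of all genes. Of 12 regions, 1 was called, where 5.84% of all regions were. It was the Ezh2 region at +0.8 kb in intron 1, without a peak in either untreated sample and with scores of 7.17 and 6.24 with IL-4 (adjusted p = 0.042). This call was lost when any 1 sample was left out, without centring (adjusted p = 0.0537), and with a floor 4 times higher (fitted log2 change 0.33, adjusted p = 0.703).

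In the RNAPII-pS2 libraries of the 1 hr experiment, Kdm6a had sums of 0 and 4.53 in those labelled untreated and 20.59 and 20.93 in those labelled IL-4. The log2 change by the labels was 3.13 (SE 0.522, adjusted p = 0.0821), and its sign turns if the peak names are right. Kdm6b had 24.75 and 47.0 in the libraries labelled untreated and 20.48 and 11.86 in those labelled IL-4 (log2 change −1.05, SE 0.499, adjusted p = 0.417). Ezh2 had 32.04, 25.57, 28.83, and 46.84, and Ezh1 13.18, 24.03, 13.07, and 14.6. The genes fixed as an IL-4 check (Arg1, Retnla, and others) had a median log2 change of −3.30 by the labels here, against 1.16 in H3K27Ac and 1.04 in RNAPII-pS5. No gene was called in this comparison (0%), and 1 of 4 members (Kdm6a) passed the unadjusted p of 0.05, as did 16.1% of genes.

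The coactivator p300 had a wide spread that followed untreated replicate 1. Its sums were 201.87 and 574.63 untreated and 692.35 and 720.28 with IL-4 at Kdm6b, 50.63, 204.03, 130.74, and 151.61 at Kdm6a, 13.41, 70.58, 98.82, and 80.41 at Ezh2, and 18.52, 68.15, 100.07, and 93.57 at Ezh1. Here 0 members were called (0% of all genes). At the unadjusted p of 0.05, 1 member passed (Ezh1), where 25.8% of genes did. Peaks at Ezh2 +3.0 kb scored 17.08 and 10.95 and those at Kdm6a +17.2 kb scored 10.85 and 7.44 with IL-4, and neither had a peak in an untreated sample (adjusted p = 0.116 and 0.165, and without untreated replicate 1 0.0606 and 0.0667). The Ezh1 region at −5.6 kb scored 7.65 and 40.93 untreated and 57.61 and 62.89 with IL-4 (log2 change 1.1, SE 0.385, adjusted p = 0.189, and 0.71 without untreated replicate 1).

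PU.1 sums were 199.05 and 102.73 untreated and 254.31 and 151.85 with IL-4 at Kdm6b, 95.55, 36.5, 117.68, and 97.02 at Kdm6a, 39.2, 15.3, 42.93, and 41.85 at Ezh2, and 115.75, 42.86, 116.7, and 93.43 at Ezh1. Untreated replicate 2 was the lowest of the 4 samples at every one of these genes. No member was called or passed the unadjusted p of 0.05, against 0% and 10.2% of genes.

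At Kdm6b, HDAC1 and HDAC2 had a peak in every sample of the 1 hr experiment. The HDAC1 sums there were 53.62, 36.82, 35.79, and 45.72, and the HDAC2 sums were 27.68 and 25.43 untreated and 57.39 and 37.31 with IL-4. At Ezh1, HDAC1 had 10.68 and 5.02 untreated and 10.18 and 13.37 with IL-4 (log2 change 1.13, SE 0.455, adjusted p = 0.601), and HDAC2 had 4.61, no peak, 16.18, and 3.7. At Ezh2 both were at most 15.32 in any sample, and at Kdm6a at most 17.91. The HDAC3 sums at Kdm6b were 120.11, 96.89, 127.36, and 120.26. No member was called for HDAC1, HDAC2, or HDAC3, nor passed the unadjusted p of 0.05. No gene was called either (0% each), and 8.86%, 9.47%, and 15.4% passed the unadjusted p.

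The LPS experiment asked how LPS changed p65 and RNAPII, and whether 24 hr of IL-4 before LPS altered this. The comparisons share control samples, so each is given by its own values. For p65, peaks per sample were 9556 to 11026 without LPS, 26305 to 26820 in ctrl/LPS, and 36738 to 38955 in IL-4 PT/LPS. The median log2 value of shared genes moved with them, from 3.98 to 4.2 without LPS to 5.79 to 5.83 in ctrl/LPS and 6.26 to 6.38 in IL-4 PT/LPS. Centred p65 changes are therefore relative to genes bound in every sample, and uncentred ones are given beside them.

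Kdm6b had p65 peaks in all 8 samples. Its summed scores were 36.73 and 35.89 in ctrl/ctrl, 44.08 and 48.25 in IL-4 PT/ctrl, 90.86 and 95.49 in ctrl/LPS, and 128.21 and 133.89 in IL-4 PT/LPS. The 4 groups did not overlap and lay in that order. Relative to the shared genes, LPS alone gave a log2 change of −0.28 (SE 0.22, adjusted p = 0.367), and without centring 1.36 (adjusted p = 0.00249). LPS after IL-4 pretreatment gave −0.78 (SE 0.22, adjusted p = 0.0468), and without centring 1.51 (adjusted p = 0.00108), so the sign of this change depends on the scaling. The call was lost when any 1 of the 8 samples was left out (adjusted p up to 0.121).

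The other 3 genes lacked a p65 peak in 1 or more of the 8 samples. Ezh2 had summed scores of 5.47 and no peak in ctrl/ctrl, 7.96 and 4.83 in IL-4 PT/ctrl, 4.27 and 8.73 in ctrl/LPS, and 28.22 and 41.65 in IL-4 PT/LPS. The pretreated LPS samples stood above all others (IL-4 PT/LPS against ctrl/LPS, log2 change 1.98, SE 0.75, adjusted p = 0.167). Kdm6a had 1 peak of 6.2 in the 4 samples without LPS, 10.16 and 13.92 in ctrl/LPS, and 4.94 and 15.9 in IL-4 PT/LPS. Ezh1 had 1 peak of 4.07 without LPS, 7.46 and 8.84 in ctrl/LPS, and 9.54 and 16.67 in IL-4 PT/LPS. By gene sums, 0 of 4 members were called for LPS, for 24 hr of IL-4, for pretreatment under LPS, and for the difference in LPS response, and 1 (Kdm6b) for LPS after pretreatment. The shares of all genes called were 35.1%, 5.96%, 12.5%, 7.42%, and 27.8% in that order. At the unadjusted p of 0.05, 1 member (Ezh2, pretreatment under LPS, where 25.7% of genes passed) was added, and 0 in the other comparisons (45.8% for LPS, 16.3% for 24 hr of IL-4, and 22.3% for the difference in response).

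Single p65 regions of the 4 genes moved in different directions. In ctrl/LPS against ctrl/ctrl, 6 of 9 regions were called, 5 of them higher, where 53.4% of 21834 regions were called. This share covers both directions, so the count of higher regions has no share of its own beside it. The Kdm6b region at +2.9 kb in intron 1 (chr11:69410312-69411214), scored 7.61 and 6.98 in ctrl/ctrl, 13.69 and 13.18 in IL-4 PT/ctrl, 34.57 and 31.01 in ctrl/LPS, and 53.66 and 44.12 in IL-4 PT/LPS. It rose with LPS by 1.12 on the log2 scale (SE 0.207, adjusted p = 0.00846, and 2.17 without centring). It was not called without ctrl/ctrl replicate 2 (adjusted p = 0.057) or after quantile normalization (0.47 on the log2 scale, adjusted p = 0.123), nor with the upper 50% of peaks (adjusted p = 0.0525). With 24 hr of IL-4 alone its log2 change was 1.08 (SE 0.207, adjusted p = 0.0568). The neighbouring region at +4.1 kb scored 13.17 to 13.89 in ctrl/ctrl and 18.22 to 20.42 in ctrl/LPS and was not called (adjusted p = 0.115).

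Several p65 regions had peaks only in samples with LPS. The Kdm6b −52.2 kb region (chr11:69465658-69466015, intron 39 of Dnah2) had no p65 peak in the 4 samples without LPS, 11.57 and 16.56 in ctrl/LPS, and 9.22 and 10.1 in IL-4 PT/LPS (LPS, adjusted p = 0.00115). This call was lost with a floor 4 times higher (fitted log2 change 0.36, adjusted p = 0.111) and with the upper 50% of peaks (adjusted p = 0.0675). The same place had p300 scores of 7.88 and 22.37 untreated and 36.54 and 30.93 with IL-4 in the 1 hr experiment. At Kdm6a +24.6 kb (chrX:18187172-18187474, intron 2), p65 had no peak without LPS, 10.16 and 9.0 in ctrl/LPS, and 4.94 and 5.63 in IL-4 PT/LPS (LPS, adjusted p = 0.0012), and with a floor 4 times higher its fitted log2 change was −0.18 and not called. The Ezh2 −26.1 kb region, intergenic, had no peak without LPS, 4.27 and 4.2 in ctrl/LPS, and 5.6 and 5.93 in IL-4 PT/LPS (LPS, adjusted p = 0.0242, and up to 0.117 without either ctrl/ctrl sample). Its direction depends on the floor, and with a floor 4 times higher it was called as lower (fitted log2 change −1.04, adjusted p = 0.000223). The call was lost after quantile normalization (0.10, adjusted p = 0.481). Kdm6b −4.0 kb had no peak without LPS, 3.76 and 4.38 in ctrl/LPS, and 5.25 and 6.24 in IL-4 PT/LPS (adjusted p = 0.0466). Both of its ctrl/LPS scores lie below a floor 4 times higher, so this rise rests on the floor. Its change under the alternatives was not listed. The Kdm6b −15.8 kb region had scores of 7.25 and 9.63 in ctrl/ctrl and of 20.54 and 20.09 in ctrl/LPS. Relative to the shared regions this was not called (log2 change 0.24, adjusted p = 0.536), and without centring it was (1.28, adjusted p = 0.00775).

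The Kdm6b region at −5.3 kb (chr11:69418745-69419076) did the opposite. It had p65 scores of 7.98 and 6.11 in ctrl/ctrl and 9.06 and 6.91 in IL-4 PT/ctrl, no peak in either ctrl/LPS sample, and 7.97 and 12.25 in IL-4 PT/LPS. Both the loss with LPS (adjusted p = 0.00065) and the difference between pretreated and untreated cells under LPS (adjusted p = 0.00108) were called. The second call was lost with a floor 4 times higher (fitted log2 change 0.65, adjusted p = 0.0766), and both were lost with the upper 50% of peaks (adjusted p = 0.214 and 0.472). The ctrl/LPS lists without this peak held more p65 peaks than the ctrl/ctrl lists with it.

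IL-4 pretreatment under LPS changed 4 of 12 p65 regions, 2 of them higher, where 35.6% of 33068 regions were called in either direction. Beside Kdm6b −5.3 kb, the Ezh2 region at +34.0 kb (chr6:47560869-47561210, intron 3) was higher, with scores of 12.41 and 10.08 in IL-4 PT/LPS and no peak in the 6 other samples (adjusted p = 0.000378). PU.1 had peaks there in all 4 samples of the 1 hr experiment, with scores of 13.39, 4.15, 18.39, and 13.76. Kdm6a +24.6 kb was lower in pretreated cells, with a log2 change of −1.13 (SE 0.178, adjusted p = 0.00525, and −0.86 without centring, adjusted p = 0.00914). Kdm6b −52.2 kb was also lower, by −0.79 on the log2 scale (SE 0.226, adjusted p = 0.0473), and this call was lost without centring (−0.52, adjusted p = 0.125) and in 7 of the 8 fits that left out 1 sample, the exception being ctrl/LPS replicate 1. The Ezh2 region at +0.9 kb had no peak in ctrl/LPS and 6.1 and 10.04 in IL-4 PT/LPS and was not called (adjusted p = 0.0566). For 24 hr of IL-4 alone, 0 of 5 p65 regions were called, where 17.2% of all regions were.

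The test of the difference itself, the response to LPS with minus without pretreatment, called 3 of 12 p65 regions, where 25.7% of 33956 regions were called. These were Kdm6b −5.3 kb (adjusted p = 0.0111), Ezh2 +34.0 kb (adjusted p = 0.00311), and Kdm6a +24.6 kb, where the response was lower by a log2 difference of −1.32 (SE 0.251, adjusted p = 0.0157). Without either ctrl/ctrl sample the Kdm6a call was lost (adjusted p up to 0.0731). After quantile normalization the Kdm6b call was lost (log2 difference 0.68, adjusted p = 0.219). With a floor 4 times higher the calls at Kdm6b −5.3 kb (fitted difference 0.27, adjusted p = 0.599) and Ezh2 +34.0 kb (0.63, adjusted p = 0.0672) were lost.

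**Figure D4:**
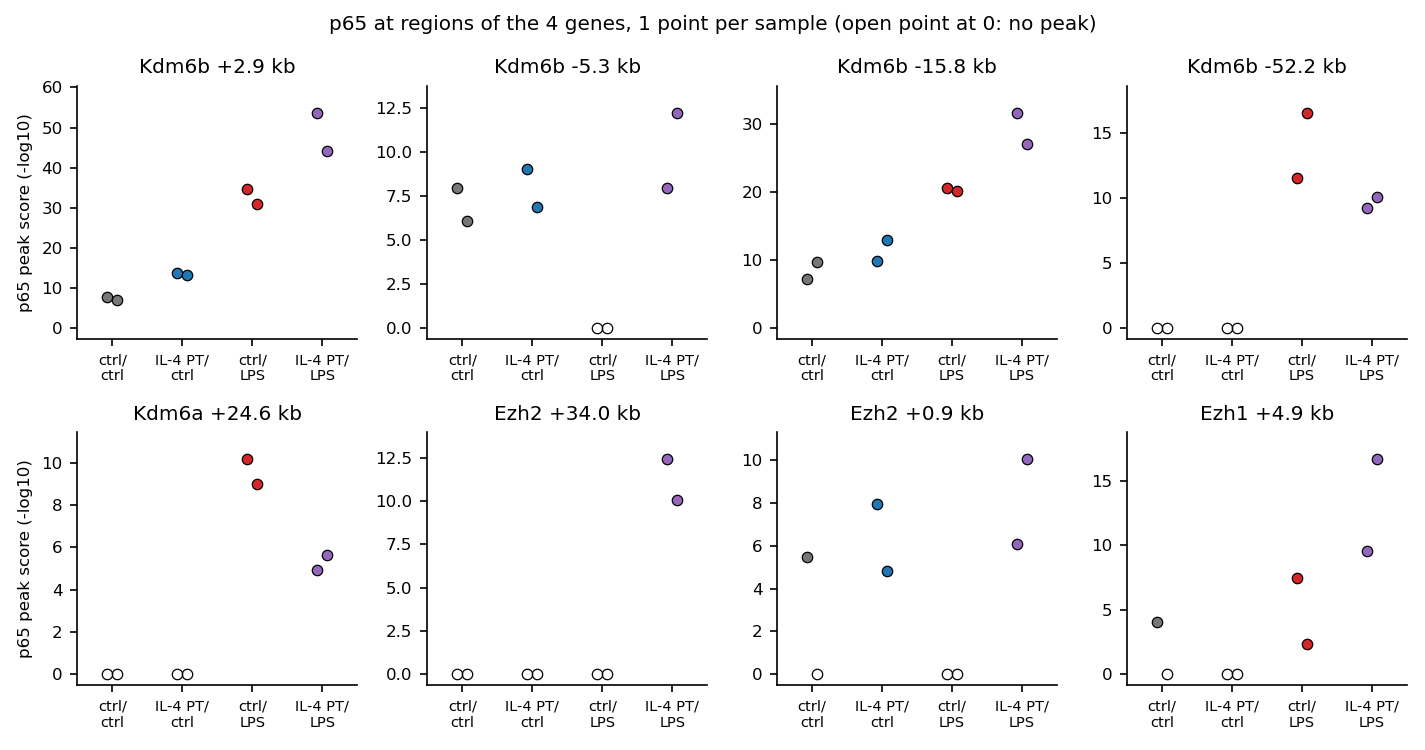
p65 peak score (y axes, −log10, each from 0) in 8 regions of the 4 genes across the 4 groups of the LPS experiment, 1 point per sample, an open point for no peak. Kdm6b +2.9 kb climbs from 6.98 in ctrl/ctrl to 53.66 in IL-4 PT/LPS, Kdm6b −5.3 kb has no peak in ctrl/LPS, and Ezh2 +34.0 kb has peaks only in IL-4 PT/LPS.

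RNAPII-pS5 at the promoter of Ezh2 was found in cells without LPS and not after it. The region at the start (chr6:47594988-47595680) scored 13.23 and 10.49 in ctrl/ctrl and 10.56 and 9.56 in IL-4 PT/ctrl, and had no peak in any of the 4 LPS samples (LPS, adjusted p = 0.00108). By gene sums Ezh2 was the 1 member of 4 called for LPS (adjusted p = 0.0426), where 25.4% of 12477 genes were called, and leaving out a sample removed this call in 6 of the 8 cases. The sums of Ezh2 were 13.23 and 10.49 in ctrl/ctrl and 10.56 and 9.56 in IL-4 PT/ctrl. It had no peak in ctrl/LPS, and no peak and 7.99 in IL-4 PT/LPS. The peak of 7.99 did not come within 500 bp of the start. Ezh1 had sums of 6.68 and 12.79 in ctrl/ctrl and 14.04 and 6.14 in IL-4 PT/ctrl, no peak in ctrl/LPS, and no peak and 9.32 in IL-4 PT/LPS (LPS, adjusted p = 0.113). Kdm6a had 15.5 and 3.76, 12.38 and 9.94, no peak and 5.31, and no peak and 5.55 in the same order of groups. The ctrl/LPS lists held 14476 and 15349 RNAPII-pS5 peaks against 20803 and 19279 in ctrl/ctrl, and the part of this in the missing peaks of the 3 genes was not tested.

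For RNAPII-pS2, the elongating form, peaks of Ezh2 were listed at the promoter without LPS and further downstream with LPS. The promoter scores were 9.5 and 6.15 in ctrl/ctrl and 5.42 and 14.42 in IL-4 PT/ctrl, with no peak in the 4 LPS samples (adjusted p = 0.00587). At +1.2 kb in intron 1 (chr6:47593523-47594275), RNAPII-pS2 had no peak in the 4 samples without LPS, 11.96 and 19.34 in ctrl/LPS, and 7.78 and 20.9 in IL-4 PT/LPS (adjusted p = 0.00482). The gene sums of Ezh2 were 14.84 and 10.87 in ctrl/ctrl, 13.73 and 20.57 in IL-4 PT/ctrl, 11.96 and 23.54 in ctrl/LPS, and 16.67 and 26.85 in IL-4 PT/LPS. With a floor 4 times higher neither region was called (fitted log2 change −0.65, adjusted p = 0.283 at the promoter and 1.26, adjusted p = 0.109 at +1.2 kb). Neither was called with the upper 50% of peaks by score (adjusted p = 0.352 and 0.128).

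Kdm6b kept RNAPII in all 8 samples of both forms. Its RNAPII-pS5 sums were 46.23 and 37.0 in ctrl/ctrl, 54.94 and 46.28 in IL-4 PT/ctrl, 36.84 and 32.62 in ctrl/LPS, and 34.19 and 49.92 in IL-4 PT/LPS. Its RNAPII-pS2 sums were 67.96 and 81.48, 64.83 and 59.4, 83.74 and 76.86, and 89.33 and 82.88. None of these changes was called. These sums leave out peaks in or near Kdm6b that carry the name Tmem88. For RNAPII-pS5 such peaks numbered 4 in ctrl/LPS and 3 in IL-4 PT/LPS. For RNAPII-pS2 they numbered 1 in IL-4 PT/ctrl, 3 in ctrl/LPS, and 6 in IL-4 PT/LPS. The other groups of this experiment had no RNAPII peak of that name there, and this split was not tested. Within the gene, RNAPII-pS5 in intron 1 was 11.33 and 10.26 in ctrl/ctrl, 19.33 and 15.28 in IL-4 PT/ctrl, 21.05 and 16.57 in ctrl/LPS, and 11.13 and 13.65 in IL-4 PT/LPS. It rose with LPS by 0.97 on the log2 scale (SE 0.277, adjusted p = 0.0458), a call lost without centring (adjusted p = 0.0617) and in 6 of the 8 fits that left out 1 sample, the exceptions being the IL-4 PT/ctrl samples. The intergenic region at −4.9 kb was 16.4 and 13.0 in ctrl/ctrl, 7.06 and 6.99 in IL-4 PT/ctrl, 5.46 and 5.68 in ctrl/LPS, and 6.22 and 6.66 in IL-4 PT/LPS. It fell with LPS (log2 change −1.21, SE 0.218, adjusted p = 0.00931) and with 24 hr of IL-4 (log2 change −1.07, SE 0.218, adjusted p = 0.0226, and not called without ctrl/ctrl replicate 1 or IL-4 PT/ctrl replicate 2).

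The Kdm6b site at −25.1 kb, in intron 63 of Dnah2, had RNAPII peaks only in IL-4-pretreated cells. RNAPII-pS5 scored 5.41 and 5.27 in IL-4 PT/ctrl and 6.03 and 6.73 in IL-4 PT/LPS, and had no peak in ctrl/ctrl or ctrl/LPS. RNAPII-pS2 scored 8.66 and 7.93 in IL-4 PT/ctrl and 17.22 and 12.41 in IL-4 PT/LPS, again with no peak in ctrl/ctrl or ctrl/LPS. Both forms were called for 24 hr of IL-4 (adjusted p = 0.00296 and 0.00149) and for pretreatment under LPS (adjusted p = 0.00397 and 0.000966). In the 1 hr experiment p300 had peaks there of 13.17 in 1 untreated sample and of 10.93 and 12.32 with IL-4, and neither RNAPII form had one. With a floor 4 times higher, the RNAPII-pS5 changes were −0.016 and −0.045 on the log2 scale and were not called. The lowest RNAPII-pS5 score was 1.44, and this raised floor also replaced the IL-4 PT/ctrl scores of 5.41 and 5.27. The RNAPII-pS2 call for 24 hr of IL-4 was lost there too (fitted log2 change 0.63, adjusted p = 0.0786).

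Kdm6a lost RNAPII-pS2 with IL-4 pretreatment. Its sums were 14.28 and 22.07 in ctrl/ctrl, 6.11 and 5.7 in IL-4 PT/ctrl, 12.44 and 8.86 in ctrl/LPS, and 4.36 and 5.8 in IL-4 PT/LPS. Kdm6a fell with 24 hr of IL-4 by a log2 change of −1.52 (SE 0.344, adjusted p = 0.0369), as the 1 member called where 14.4% of 13663 genes were. This call was lost when samples were left out in turn, except without ctrl/ctrl replicate 1. Under LPS the change with pretreatment was −1.11 (SE 0.344, adjusted p = 0.117). Most of it lay at +24.6 kb in intron 2, with 10.34 and 13.12 in ctrl/ctrl, 3.0 and 5.7 in IL-4 PT/ctrl, 12.44 and 8.86 in ctrl/LPS, and no peak in IL-4 PT/LPS. The region fell with 24 hr of IL-4 (log2 change −1.44, SE 0.348, adjusted p = 0.0326, lost without either ctrl/ctrl sample, either IL-4 PT/LPS sample, or IL-4 PT/ctrl replicate 1) and was without a peak under pretreatment and LPS (adjusted p = 0.0029). This is the region where H3K27Ac fell after 1 hr of IL-4 and where p65 was lower in pretreated cells. In turn the RNAPII-pS2 region at −0.3 kb had peaks of 4.36 and 5.8 in IL-4 PT/LPS and in no other group (adjusted p = 0.00358). This call was lost with a floor 4 times higher (fitted log2 change 0.087, adjusted p = 0.887) and after quantile normalization (1.34, adjusted p = 0.0562). Beside this region, still within 500 bp of the start, RNAPII-pS2 peaks scored 5.23 in ctrl/ctrl replicate 2 and 3.11 in IL-4 PT/ctrl replicate 1. The pattern thus holds for the region as it was cut and not for the promoter as a whole.

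Ezh1 had RNAPII-pS2 sums of 9.45 and 8.94 in ctrl/ctrl, 6.87 and 3.14 in IL-4 PT/ctrl, 3.78 and 5.17 in ctrl/LPS, and 11.95 and 9.54 in IL-4 PT/LPS. Neither the change with LPS (log2 change −1.28, SE 0.458, adjusted p = 0.0903) nor that with pretreatment under LPS (1.23, SE 0.458, adjusted p = 0.176) was called. Its intergenic region at −5.4 kb had peaks of 9.45 and 4.22 in ctrl/ctrl and in no other group, and this loss was called with LPS (adjusted p = 0.00464) and with 24 hr of IL-4 (adjusted p = 0.0103). Both calls were lost with a floor 4 times higher (fitted log2 change −0.57, adjusted p = 0.119 for LPS and −0.33, adjusted p = 0.499 for 24 hr of IL-4), and the second was also lost without IL-4 PT/ctrl replicate 2 (adjusted p = 0.0531). RNAPII-pS5 at Ezh1 +4.8 kb had peaks of 8.52 and 6.14 in IL-4 PT/ctrl, 5.29 in 1 IL-4 PT/LPS sample, and in no other (24 hr of IL-4, adjusted p = 0.0556).

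**Figure D5:**
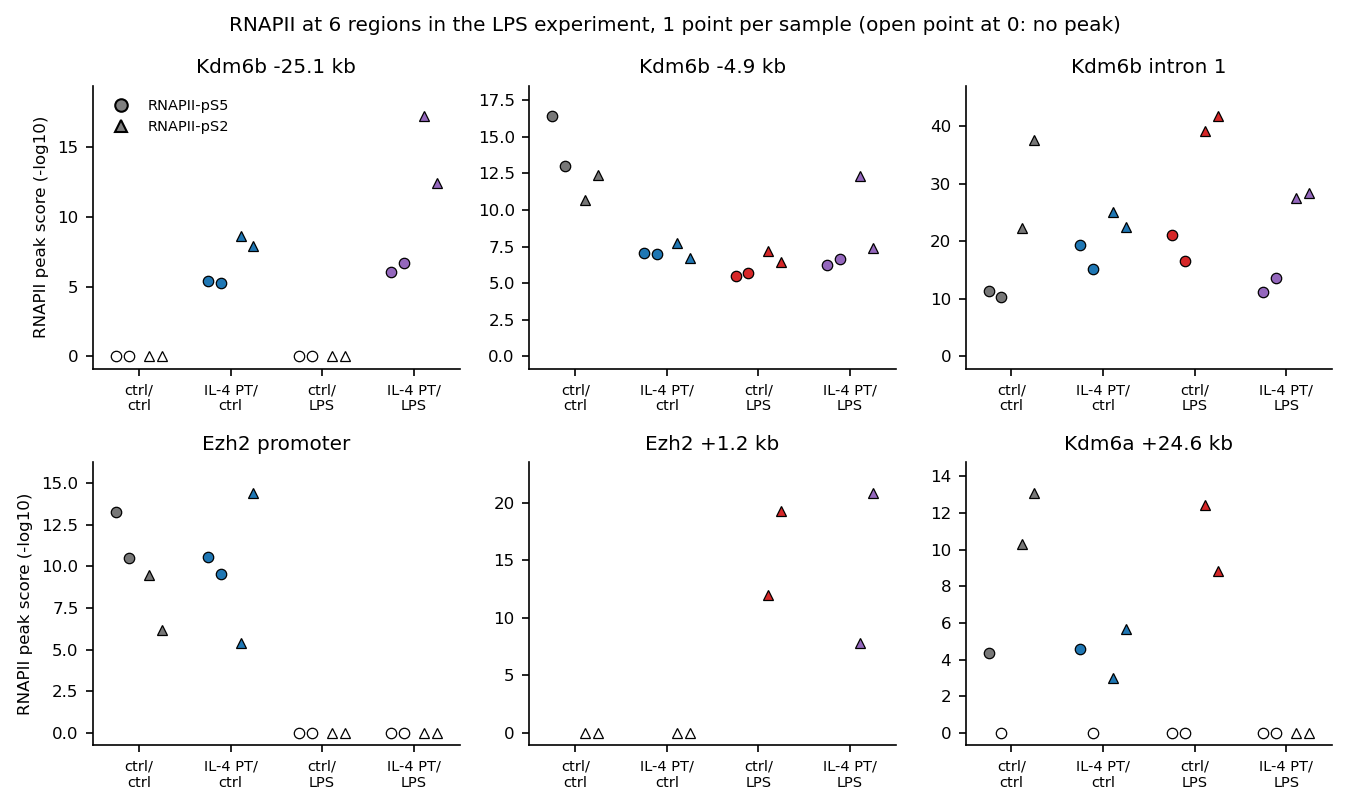
RNAPII-pS5 (circles) and RNAPII-pS2 (triangles) peak scores (y axes, −log10) in 6 regions of Kdm6b, Ezh2, and Kdm6a across the 4 groups of the LPS experiment, 1 point per sample, an open point for no peak (RNAPII-pS5 had no region at Ezh2 +1.2 kb to test). Kdm6b −25.1 kb has peaks only after IL-4 pretreatment, and the Ezh2 promoter has none in the 4 LPS samples.

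Counted over regions, RNAPII-pS5 had 3 of 6 called for LPS (44.5% of all regions), 2 of 9 for 24 hr of IL-4 (23.3%), 1 of 4 for pretreatment under LPS (24.2%), and 0 of 9 for the difference in LPS response (19.3%). RNAPII-pS2 had 3 of 10 for LPS (45.8%), 3 of 9 for 24 hr of IL-4 (31.7%), 3 of 9 for pretreatment under LPS (24.8%), and 2 of 12 for the difference in response (21.5%). The last 2 were Ezh1 −5.4 kb (adjusted p = 0.0368, lost in 6 of the 8 fits that left out 1 sample, the exceptions being the ctrl/ctrl samples) and Kdm6a −0.3 kb (adjusted p = 0.0159). Both were lost with a floor 4 times higher (adjusted p = 0.576 and 0.985), as was Kdm6a −0.3 kb after quantile normalization (0.125). Counted over genes, RNAPII-pS5 had 0 of 4 called for 24 hr of IL-4 (8.66% of genes), pretreatment under LPS (10%), LPS after pretreatment (20.5%), and the difference in response (6.11%). None passed an unadjusted p of 0.05 either, as 21.6%, 26.1%, 34%, and 22.6% of genes did. RNAPII-pS2 had 0 of 4 called for LPS (26.7%), pretreatment under LPS (8.46%), LPS after pretreatment (20.4%), and the difference in response (6.38%). At an unadjusted p of 0.05, 2, 2, 0, and 1 members passed, against 39.9%, 23.5%, 35.1%, and 22.4% of genes. With 4 genes, these counts are a description.

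Of the 4 genes, Kdm6b alone had an RNAPII-pS5 peak in all 8 samples of the LPS experiment, so that the genes most alike to it could be listed. Among 5015 genes with a peak in all 8, the centred log2 sums of Copg1 (Pearson's r = 0.923), BC027231 (0.916), Smarca5 (0.898), Pex2 (0.877), and Fbxo30 (0.876) were most like those of Kdm6b. These values describe 8 samples of 4 groups.

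The partners of the 4 enzymes were counted by gene sums from fixed lists. A gene with no peak in a sample took the floor value here too. Large changes of these genes can therefore rest on missing peaks and are no folds. The list genes were not examined with a higher floor. The list for the MLL3/4 complexes, in which KDM6A acts, held 9 genes, of which 7 were tested in each RNAPII form. Kmt2c and Kmt2d were on it, and neither is among the called genes named here. After LPS alone, RNAPII-pS2 was lower in 5 of the 7 tested genes and higher in 0, where 2041 of 13663 genes were lower and 1606 higher. Their median log2 change was −1.99, beside −0.22 over all genes tested. The 5 were Pagr1a (−3.54), Ncoa6 (−3.28), Dpy30 (−2.78), Wdr5 (−1.99), and Paxip1 (−1.99). RNAPII-pS5 was lower in 3 of 7 (Rbbp5, Pagr1a, and Ash2l) and higher in 0, with a median of −2.42 beside −0.34, where 2139 of 12477 genes were lower and 1036 higher. For LPS after pretreatment, RNAPII-pS2 was lower in 2 of 7 (1465 of 13663 genes) and RNAPII-pS5 in 1 of 7 (1688 of 12477 genes), and the difference between the responses was called for 0 of 7 in either form.

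Of the PRC2 core genes, which hold the subunits that EZH1 and EZH2 need, 2 of 3 tested fell in RNAPII-pS2 with LPS. They were Eed (log2 change −1.92, adjusted p = 0.0268) and the histone-binding subunit Rbbp7 (−2.69, adjusted p = 0.00168). With LPS, 2041 of 13663 genes were lower and 1606 higher in RNAPII-pS2, and 2139 of 12477 were lower and 1036 higher in RNAPII-pS5. Rbbp7 also fell in RNAPII-pS5, as 1 of 3 tested (−2.44, adjusted p = 0.00457), and with 24 hr of IL-4 in both forms (−2.40 in RNAPII-pS2 and −2.84 in RNAPII-pS5), where 893 of 13663 and 440 of 12477 genes were lower. Suz12 rose in H3K27Ac after 1 hr of IL-4 (0.47, adjusted p = 0.0405), as 1 of 4 tested, where 1928 of 13035 genes were higher and 2353 lower. Of the accessory subunits of PRC2, Aebp2 rose with LPS in RNAPII-pS2 (1.53) and RNAPII-pS5 (1.29) while Mtf2 fell in both (−2.15 and −2.07), out of 5 and 4 tested. Jarid2 rose in p65 with LPS (2.74, adjusted p = 0.00232), 1 of 5, where 2349 of 12312 genes were higher and 1975 lower, and in H3K27Ac with IL-4 (0.27, adjusted p = 0.0349), 1 of 5.

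PRC1 genes, whose complexes ubiquitylate histone H2A, were called in both directions. With LPS, 2 of 12 rose and 3 fell in RNAPII-pS2, 1 of 9 rose and 2 fell in RNAPII-pS5, and 2 of 9 rose and 1 fell in p65. Over all genes, 1606 of 13663 rose and 2041 fell in RNAPII-pS2, and 1036 of 12477 rose and 2139 fell in RNAPII-pS5. In p65, 2349 of 12312 rose and 1975 fell. Pcgf5 rose in all 3 readouts, by 5.15, 2.83, and 3.75 on the log2 scale, and Cbx7 fell in RNAPII-pS2 (−2.67) and RNAPII-pS5 (−3.78). After 1 hr of IL-4, 1 of 12 rose in H3K27Ac (Rnf2, 0.52) and 3 fell (Cbx7, Pcgf5, and Phc2). There, 1928 of 13035 genes were higher and 2353 lower. With 24 hr of IL-4, 4 of 12 fell in RNAPII-pS2 (Cbx7, Pcgf3, Pcgf6, and Rnf2) and 0 rose, where 893 of 13663 genes were lower and 1079 higher. These counts are descriptions of short lists, and nothing in them is tested as particular to a list. Uty, the relative of Kdm6a on the Y chromosome, rose in H3K27Ac with 1 hr of IL-4 (0.53, adjusted p = 0.0127) and fell in RNAPII-pS5 with LPS (−1.75, adjusted p = 0.0367). The acetyltransferase genes Ep300 and Crebbp were not called in any comparison made.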

How the data were processed

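BMDMs were cross-linked with DSG and formaldehyde, and ChIP-seq libraries were made with Ovation Ultralow or TruSeq kits. The authors aligned reads to mm10, and their processing notes name BWA 0.7.10, SAMtools 0.1.19, HOMER 4.2, and MACS2 2.0.10. The deposited score of every antibody but H3K27Ac is a −log10 p- or q-value of MACS2, a reading taken from the values, which depends on depth. The deposited H3K27Ac values are a HOMER normalized tag signal in regions of fixed width. Each peak list was made by the authors per sample. Read depth is not given in the sources used here, so no counting interval is given.

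Scores of all peaks with a gene's name were summed, and peaks overlapping by 1 bp or more were merged into regions. Genes or regions with a peak in 2 or more samples were kept. A missing peak took the lowest score in the antibody's lists. Log2 values were centred per sample and tested with limma 3.58.1 in R 4.3.3, over the samples of 1 antibody and experiment, with Benjamini-Hochberg adjustment over all genes or regions and a threshold of 0.05. Other steps used Python 3.11.15, pandas 2.3.3, NumPy 2.4.6, and matplotlib 3.10.9. The fits were tested on simulated data. With 2 samples against 2, an exact two-sided permutation test cannot go below p = 0.333, so none was used. Names, coordinates, and annotation of peaks are the authors'. Gene spans came from GENCODE on GRCm38.

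The 4 genes and all lists were chosen with earlier results of these data known. Named were the 4 genes, with a test printed where groups did not overlap and the log2 change was at least 1, or where the adjusted p was at most 0.05, and further results were chosen after their values were seen. Alternatives were another filter, floor, centring, overlap, summary, gene assignment, the replicate number as a block, and leaving out each sample. Deviations of same-numbered samples, compared within each antibody and experiment, correlated between −0.0272 and 0.0798. Such values cannot exclude that same-numbered samples shared a culture or animal.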

Additional observations from a re-analysis of the deposited data

Results flagged for a closer look

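In 5 regions the response to LPS differed between cells with and without IL-4 pretreatment by the test of the difference itself. These differences, on the log2 scale and as the response with minus without pretreatment, rest on the floor value wherever a group had no peak. For p65 they were 2.27 at Kdm6b −5.3 kb, 2.63 at Ezh2 +34.0 kb, and −1.32 at Kdm6a +24.6 kb. For RNAPII-pS2 they were 2.19 at Ezh1 −5.4 kb, where only ctrl/ctrl had peaks, and 1.86 at Kdm6a −0.3 kb, where only IL-4 PT/LPS had peaks. Beside the Kdm6a region, within 500 bp of the start, peaks scored 5.23 in ctrl/ctrl replicate 2 and 3.11 in IL-4 PT/ctrl replicate 1. All 5 are fitted differences and no folds. With a floor 4 times higher they were 0.27 at Kdm6b −5.3 kb (adjusted p = 0.599), 0.63 at Ezh2 +34.0 kb (adjusted p = 0.0672), 0.39 at Ezh1 −5.4 kb (adjusted p = 0.576), and 0.037 at Kdm6a −0.3 kb (adjusted p = 0.985), and none of these 4 was called. p65 peaks per sample also differed between ctrl/LPS (26305 and 26820) and IL-4 PT/LPS (36738 and 38955), and the part of this in the p65 differences was not tested.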

How the results depend on the processing

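Of the single results under the alternatives, 885 kept their direction and stayed called or stayed not called, 124 lost a call, 40 gained one, and 15 changed sign. The 885 thus include results that were never called, and fits that left out a sample outside the compared groups. The Kdm6b call in H3K27Ac was kept whichever sample was left out.

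Changes of sign, all on the log2 scale, were as follows. Without centring, p65 at Kdm6b with LPS after pretreatment was 1.51. With the RNAPII-pS2 labels of the 1 hr experiment exchanged, Kdm6a was −3.13, its promoter region −2.46, and Kdm6b 1.05. RNAPII-pS2 at Ezh1 with LPS was 0.56 by gene span, an alternative chosen after seeing the data, and 0.70 without intergenic peaks. A floor 4 times higher gave −0.074 for HDAC2 at Kdm6b −4.6 kb, −0.31 for PU.1 at Ezh2 +67.0 kb, −1.04 (called as lower, adjusted p = 0.000223) and −0.18 for p65 with LPS at Ezh2 −26.1 kb and Kdm6a +24.6 kb, −0.19 for RNAPII-pS2 with LPS at Ezh1 +4.9 kb, and −0.016 and −0.045 for RNAPII-pS5 at Kdm6b −25.1 kb with 24 hr of IL-4 and with pretreatment under LPS. Keeping the upper 50% of peaks by score gave −0.16 for the p65 difference in response at Kdm6b −5.3 kb and −0.33 for RNAPII-pS2 with LPS at Ezh1 +4.9 kb. The floor 4 times higher also replaced measured scores below it, as at Ezh2 −26.1 kb. The cause was not tested.

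Counts of the 4 genes or their regions called also moved with the setting. Comparisons are 1 hr of IL-4 (1 hr), 24 hr of IL-4 (24 hr), LPS, LPS after pretreatment, pretreatment under LPS, and the difference in LPS response. With features that had a peak in every sample, regions called were 0, 1, 0, and 0 for RNAPII-pS2 (24 hr, LPS, pretreatment, difference), 1, 1, 0, and 0 for p65 in the same order, and 0, 1, and 0 for RNAPII-pS5 (1 hr, 24 hr, pretreatment), and 0 genes were called for RNAPII-pS5 with LPS. These fits hold fewer features and none that lack a peak. With a floor 4 times higher, genes called were 1, 2, and 1 for RNAPII-pS2 (1 hr, LPS, pretreatment), 0 for RNAPII-pS5 with LPS, and 2, 3, and 1 for p65 (LPS, LPS after pretreatment, pretreatment). Regions were then 1, 1, 1, and 0 for RNAPII-pS2 (1 hr, 24 hr, LPS, difference), 1, 0, and 1 for RNAPII-pS5 (24 hr, pretreatment, difference), and 1 and 1 for p65 (24 hr, difference). With the highest peak in place of the sum, and without intergenic peaks, RNAPII-pS2 at 24 hr and p65 for LPS after pretreatment had 0 genes. Genes with at least 1 called region were 2 for H3K27Ac, 3, 2, 2, 2, and 2 for RNAPII-pS2 (24 hr, LPS, LPS after pretreatment, pretreatment, difference), 1, 1, 2, 2, and 1 for RNAPII-pS5 (1 hr, 24 hr, LPS, LPS after pretreatment, pretreatment), and 3, 2, 3, and 3 for p65 (LPS, LPS after pretreatment, pretreatment, difference). Without centring, RNAPII-pS5 had 0 regions at 1 hr and 1 for the difference, and p65 had 2 and 4 genes (LPS, LPS after pretreatment). Without a filter, regions were 1 for RNAPII-pS2 (difference) and 0 and 1 for RNAPII-pS5 (1 hr, 24 hr), and p65 had 0 genes (LPS after pretreatment). An overlap of 50% gave 2 RNAPII-pS5 regions (pretreatment), gene spans gave 2 RNAPII-pS5 genes (LPS), and quantile normalization gave 1 RNAPII-pS2 region (difference) and 0 RNAPII-pS5 genes (LPS). At an unadjusted p, regions were 1, 2, 1, 1, 2, and 4 for HDAC1, HDAC2, PU.1, RNAPII-pS2, RNAPII-pS5, and p300 at 1 hr, 4 for RNAPII-pS2 (difference), 3 and 3 for RNAPII-pS5 (pretreatment, difference), and 1 and 5 for p65 (24 hr, difference). Genes were 1 and 1 for RNAPII-pS2 and p300 at 1 hr, 2, 2, and 1 for RNAPII-pS2 (LPS, pretreatment, difference), 2 for RNAPII-pS5 (LPS), and 1 for p65 (pretreatment). With the upper 50% of peaks, genes were 3 for H3K27Ac, 1 and 1 for RNAPII-pS2 (1 hr, pretreatment), 0 for RNAPII-pS5 (LPS), and 2, 2, 2, and 2 for p65 (LPS, LPS after pretreatment, pretreatment, difference). Regions were 2 for HDAC1, 3, 0, and 1 for RNAPII-pS2 (1 hr, LPS, difference), 0 and 2 for RNAPII-pS5 (24 hr, difference), and 1 for p65 (LPS).

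In the fit blocked on replicate numbers (the labels tie them to no shared culture), genes were 0 for RNAPII-pS2 (24 hr), RNAPII-pS5 (LPS), and p65 (LPS after pretreatment), and regions were 1 for RNAPII-pS2 (difference) and 0 and 1 for RNAPII-pS5 (1 hr, 24 hr). No other count moved by over 1.5 times under the block. Named regions that lost their call under it were Kdm6a +24.5 kb in H3K27Ac (adjusted p = 0.059), Ezh2 −26.1 kb (LPS, 0.0559) and Kdm6b −52.2 kb (pretreatment, 0.0731) in p65, Kdm6a +24.6 kb (24 hr, 0.0525) and Ezh1 −5.4 kb (difference, 0.055) in RNAPII-pS2, and Ezh2 +0.8 kb (1 hr, 0.11), Kdm6b intron 1 (LPS, 0.0732), and Kdm6b −4.9 kb (24 hr, 0.0546) in RNAPII-pS5.

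Leaving out 1 sample gave 0 to 1 genes for RNAPII-pS2 (24 hr, LPS, difference), 0 to 2 for RNAPII-pS5 with LPS, 0 to 1 for RNAPII-pS5 (LPS after pretreatment, pretreatment), and 0 for p65 (LPS after pretreatment). Regions were 2 in each case for H3K27Ac, 2 to 3, 3 to 4, 3 to 4, and 1 to 2 for RNAPII-pS2 (24 hr, LPS, pretreatment, difference), 0 for RNAPII-pS5 at 1 hr, 1 to 3, 2 to 5, 1 to 2, and 0 to 2 for RNAPII-pS5 and 0 to 1, 3 to 6, 3 to 4, and 2 to 4 for p65 (24 hr, LPS, pretreatment, difference). A group then has 1 sample, which is assumed to vary like the others. Depth is unknown, so a missing peak cannot be told from a weak one.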
